A study of Rattus norvegicus with 12 samples.

Results

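Endoplasmic reticulum (ER) chaperones, folding enzymes, stress sensors and components of ER-associated degradation (ERAD) form a list of 36 genes, described here in rat muscle cells. The members are the genes of the list whose RefSeq accession on the array maps to their rat symbol. Of the 36, 33 had a named probe, and 32 had a probe bright enough to be tested, among 10740 named genes tested on the same arrays. *Derl2*, *Manf* and *Sec24d* had no named probe. The probe of *Ern1* was too dim for the test.

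The cells were myotubes of the established rat line L6, a skeletal muscle line. The sample labels give 6 days of differentiation, in a medium with horse serum, and the study's methods another number of days. The cells then received a compound at 60 µM, dissolved in DMSO, for 24 h, or DMSO alone. The groups were the control (DMSO), GR24 (a synthetic strigolactone, an analog of a class of plant hormones), pinosylvin and resveratrol (both plant stilbenes). RNA of each group was hybridised to 3 arrays of 1 colour, 12 in all. The arrays of a group came from 3 independent experiments on cells of a single batch, so that differences between batches of cells were not sampled.

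Proteins that enter the secretory pathway fold in the ER with the help of lumenal chaperones of the heat shock families, of lectin chaperones that bind their sugar chains, and of oxidoreductases that form and shuffle disulfide bonds. When unfolded proteins accumulate, the membrane sensors *Ern1* (IRE1), *Atf6* and *Eif2ak3* (PERK) start the unfolded protein response, in which the transcription factors *Xbp1* and *Atf6* raise the transcription of chaperone and ERAD genes. Proteins that fail to fold are recognised, drawn back through the membrane by complexes around the ubiquitin ligase *Syvn1* (Hrd1), and degraded by the proteasome.

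Per array, 58717 spots were read. The share well above background was 59.5% to 64.3% in the control (median 62.2%), 58.0% to 62.5% with GR24 (median 60.2%), 60.2% to 62.0% with pinosylvin (median 60.4%) and 61.7% to 64.0% with resveratrol (median 61.8%), and 0 spots were saturated. With so few arrays, precision is limited. Values below are log2 signals relative to the 75th percentile of the array, so that 0 is that percentile. Levels of different probes are not comparable, and each comparison stays within a probe. A probe entered the limma test when at least 1 group had all of its 3 arrays well above background, and a change was called at a Benjamini-Hochberg adjusted p under 0.05 over the 24278 probes tested. Changes are log2 differences with their standard error (SE), from 3 arrays a group. Of 20 myotube markers with a tested probe, among them *Acta1*, *Ckm*, *Myog* and *Myh3*, 20 were well above background on all 3 control arrays. So were 8 of 8 fibroblast markers and 8 of 9 myoblast markers. A tested probe is by choice bright in at least 1 group. Detection of these markers therefore cannot tell myotubes from the other cells.

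The ER genes moved most often with GR24, in both directions, and with pinosylvin mostly upward. With GR24, 10 of the 32 tested members were higher than in the control (31.2%) and 10 were lower (31.2%). Among all named genes, 36.1% were higher and 26.7% lower, and 57.1% of all tested probes changed in either direction, so the members' shares lay near the background. Apart from *Derl3*, dim in the control, the largest changes with GR24 were in *Ero1a* and *Dnajc3*, which rose, and in *Pdia6* and *Atf6*, which fell. *Derl3* rose by more than *Ero1a* here but by 0.67 with normexp, so its rank depends on the processing. With pinosylvin, 10 of 32 members were higher (31.2%) and 0 lower, and *Pdia6* alone was called lower with quantile normalization and in the deposited table. The background there was 8.59% of named genes higher and 9.77% lower, and 16.6% of probes in either direction. The highest changes were in *Derl3*, *Hyou1* and *Dnajc3*. With resveratrol, 6 of 32 members were higher (18.8%) and 3 lower (9.38%), beside 8.63% and 10.3% of named genes and 17.0% of probes in either direction. *Derl3* and *Hyou1* led the rises and *Pdia5* and *Pdia6* the falls. In bulk RNA of a culture, fewer cells of a type and less RNA per cell cannot be told apart. The probe of *Derl3* was tested because the treated groups were bright while the control was dim, a choice that favours a difference, and each of the 3 counts of rising members is 1 lower without it. The other 31 were bright in all 4 groups. With GR24 the balance of 10 and 10 was not steady: it was 11 and 5 without GR24 replicate 3, 9 and 5 with dim probes kept, and 8 and 6 with only the arrays compared. Over the 23 alternatives the number of members called with pinosylvin ran from 5 to 16, so the count of 10 depends on the choices made.

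Between the compounds, GR24 and pinosylvin differed in 19 of the 32 tested members, 6 higher with GR24 (18.8%) and 13 lower (40.6%), against a background of 34.7% of named genes higher, 27.0% lower and 56.4% of probes in either direction. GR24 and resveratrol differed in 17, 8 higher with GR24 (25.0%) and 9 lower (28.1%), against 31.6%, 25.1% and 51.4%. Pinosylvin and resveratrol differed in 7, with 7 higher with pinosylvin (21.9%) and 0 lower, against 8.13%, 8.26% and 14.5%. *Derl3* is among the 13 and among the 7. *Edem1* was in addition called lower with pinosylvin than with resveratrol under each of the other 4 scalings tried. The comparisons share arrays, those with the control the 3 control arrays, so they are not independent of each other. The median change of the 32 members was 0.051 with GR24, 0.19 with pinosylvin and 0.027 with resveratrol, beside 0.078, 0.040 and 0.019 for all named genes. These medians were the same with *Derl3* at its bound. For pinosylvin against resveratrol the median was 0.12, beside 0.0029 for named genes. Against the control, the GR24 median was 0.15 with the percentile over spots, beside 0.18 for named genes. Across the scalings, the resveratrol median ran from 0.010 with quantile normalization to 0.064 in the deposited table, beside 0.031 and 0.039.

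The scaling of the arrays moved the balance of the GR24 calls. With the percentile taken over spots, the median of all probes with GR24 against the control shifted from 0.027 to 0.13, and against resveratrol from 0.024 to 0.14. The GR24 split of members was then 15 higher and 7 lower, beside 43.7% and 23.4% of named genes, and the deposited table gave a split of 13 and 6, beside 40.9% and 23.8%. *Calr*, *Dnajb11* and *Edem1* were higher in both of these, and *Pdia4* and *Sec61b* no longer lower in either. For GR24 against pinosylvin the split of 6 and 13 became 8 and 11 with quantile normalization, 4 and 14 with normexp, 8 and 10 in the deposited table and 10 and 11 with the percentile over spots. For GR24 against resveratrol, 8 and 9 became 13 and 9 with the percentile over spots, and the members' median went from -0.075 to 0.036 there and to 0.013 in the deposited table. For pinosylvin against resveratrol, 7 and 0 became 6 and 1 with quantile normalization and with normexp, 4 and 1 in the deposited table, and 9 and 1 with the percentile over spots.

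**Figure D1:**
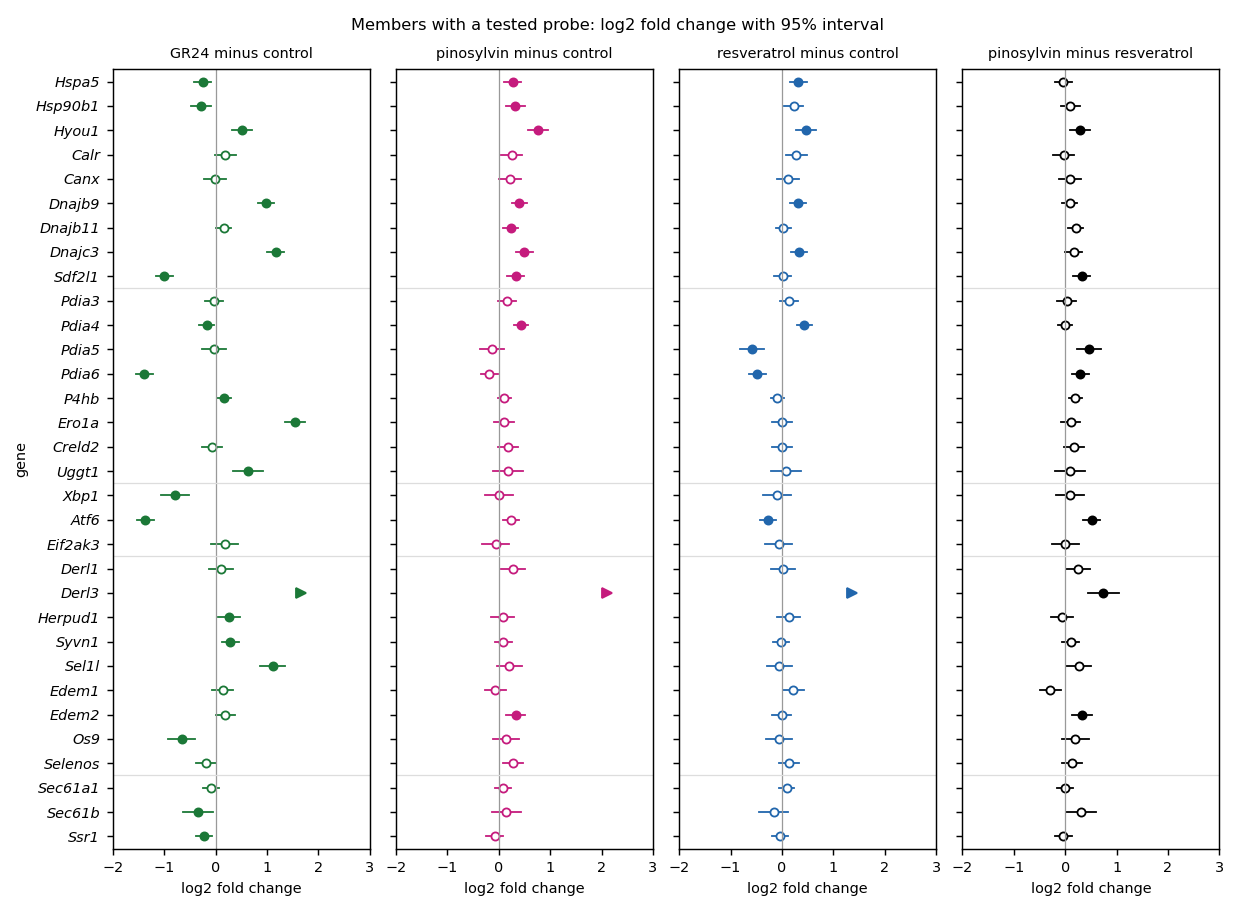
Log2 change of the 32 tested members (rows, by role) in the 3 comparisons with the control and in pinosylvin minus resveratrol, as points with 95% intervals, filled where the adjusted p was under 0.05. For Derl3 against the control a triangle marks the lower bound, since its control signal was not above background; with GR24, 10 members lie past the threshold on each side, 15 and 7 with the percentile over spots.

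*Derl3* encodes a Derlin, a family of membrane proteins through which misfolded proteins leave the ER. It was singled out with its rise with pinosylvin known, so its values describe that rise and are no independent evidence for it. Its signal was -5.64, -5.53 and -5.29 in the control, -3.70, -3.73 and -3.77 with GR24, -3.07, -3.22 and -3.55 with pinosylvin and -3.84, -4.21 and -4.03 with resveratrol. None of the 3 control arrays was well above background, whereas all 9 treated arrays were. The 3 pinosylvin arrays were the highest, above every GR24 and resveratrol array, the 3 GR24 arrays lay above the 3 resveratrol arrays, and the 3 control arrays were the lowest. A signal under the background has only an upper limit, taken per array as the higher of its own value and the lowest signal of any probe well above background, so changes against the control are lower bounds. *Derl3* was at least 4.32-fold higher with pinosylvin, at least 3.16-fold higher with GR24 and at least 2.58-fold higher with resveratrol, in each case with the 3 treated arrays above the 3 control arrays. No p is given for these, since the probe was singled out for its rise and its control values lie under the background. The bounds hold for this background correction only. With normexp, which adds an offset of 50 to the signals, the log2 changes were 1.00, 0.67 and 0.56, and the deposited table gave values of 1.71, 1.35 and 1.23.

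Both sides of a comparison between compounds were measured. *Derl3* was 1.67-fold higher with pinosylvin than with resveratrol (log2 0.74) and 1.37-fold higher than with GR24 (log2 0.45), with no overlap of arrays in either. These too are given as description without a p, since they rest on the pinosylvin values for which the gene was singled out. Pinosylvin minus resveratrol was 0.45 with normexp and 0.48 in the deposited table. GR24 minus resveratrol was 0.29 (95% interval -0.011 to 0.60, adjusted p = 0.101), not called although the arrays did not overlap. Pinosylvin minus resveratrol was 0.88 on slide 1 and 0.48 on slide 2. A second probe for *Derl3* was not well above background on any of the 12 arrays. *Derl3* probe signals were thus ordered pinosylvin, GR24, resveratrol and control. The GR24 and resveratrol levels in that order did not differ past the threshold, except with the percentile over spots (0.40, adjusted p = 0.0260). Pinosylvin minus resveratrol was not called in the deposited table. GR24 minus pinosylvin was -0.36 and not called there and with quantile normalization.

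**Figure D2:**
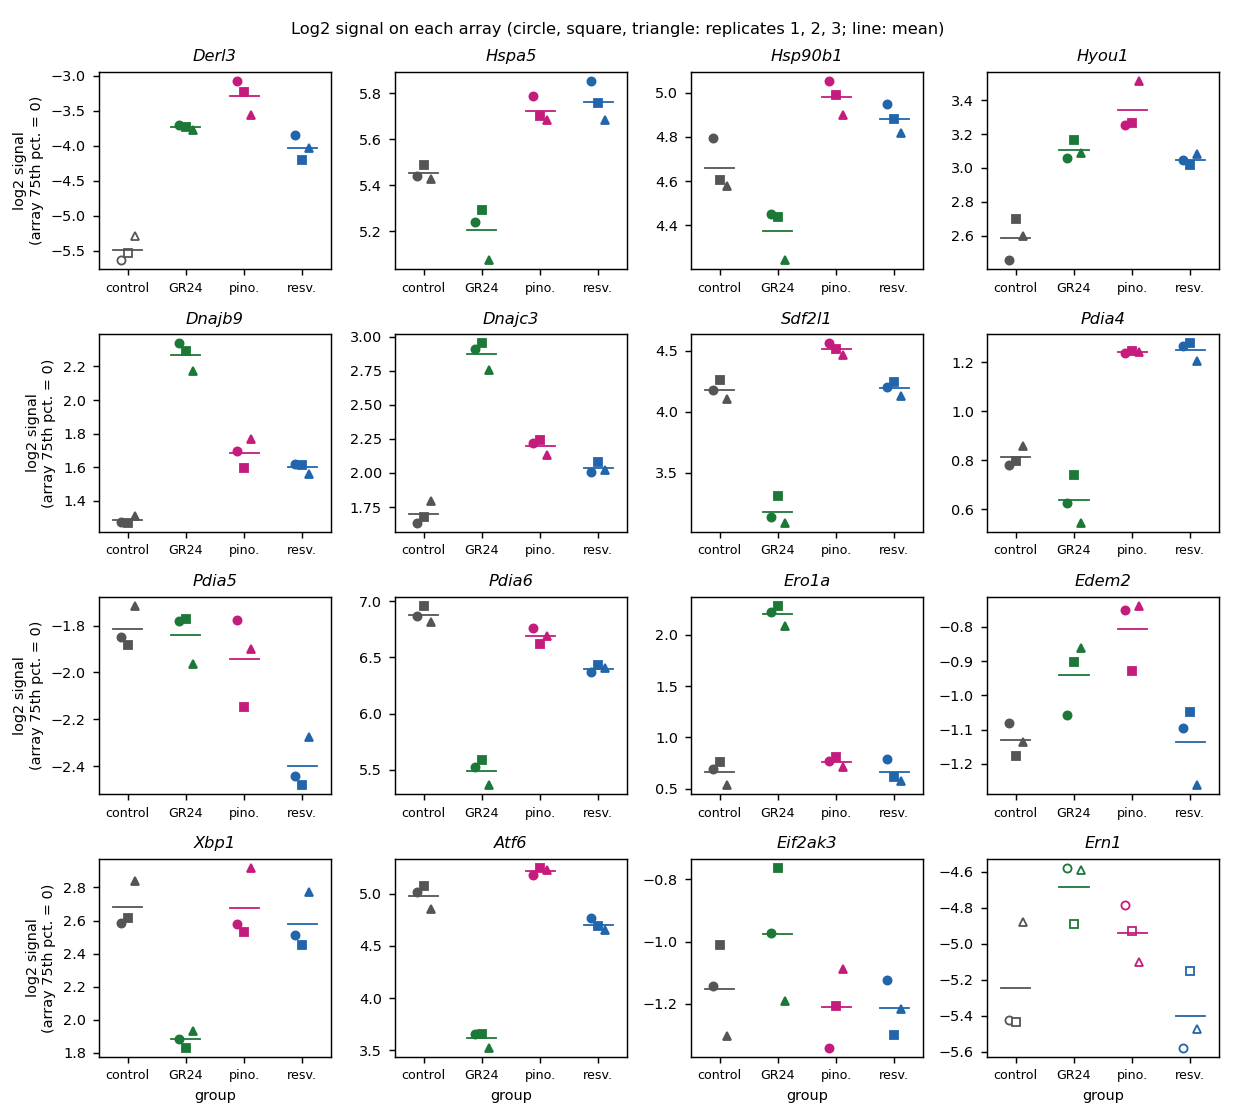
Log2 signal relative to the 75th percentile of the array for 16 members on each of the 12 arrays, by group, with the group mean as a line and open symbols where the group was not well above background on all 3 arrays. Axes differ between genes; for Derl3 the pinosylvin arrays sit between -3.55 and -3.07 and the control arrays between -5.64 and -5.29, and for Ero1a the 3 GR24 arrays lie between 2.09 and 2.28 and the other 9 between 0.53 and 0.81.

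The lumenal and lectin chaperones were the role in which the stilbenes moved most members. Of 9 tested, 7 rose with pinosylvin, 4 with resveratrol, and 0 fell with either, beside rises in 8.59% and 8.63% of named genes. The count of 7 was not steady. The pinosylvin calls of *Hspa5*, *Hsp90b1*, *Dnajb11* and *Sdf2l1* were all missed without pinosylvin replicate 1, and also with dim probes kept. With GR24, 3 rose (*Dnajb9*, *Dnajc3* and *Hyou1*) and 3 fell (*Hspa5*, *Hsp90b1* and *Sdf2l1*), near the 36.1% and 26.7% of named genes. *Calr* and *Dnajb11* rose with GR24 as well with quantile normalization, in the deposited table and with the percentile over spots. *Hspa5* and *Hsp90b1* were not called with GR24 in the deposited table. *Hspa5* (BiP), the Hsp70 chaperone of the ER lumen, measured 5.44, 5.49 and 5.43 in the control, 5.24, 5.29 and 5.07 with GR24, 5.79, 5.70 and 5.69 with pinosylvin and 5.85, 5.76 and 5.68 with resveratrol. Every GR24 array was below, and every stilbene array above, the 3 control arrays. The fall with GR24 was -0.25 (SE 0.075, adjusted p = 0.0150) and the rises were 0.27 with pinosylvin (adjusted p = 0.0312) and 0.31 with resveratrol (adjusted p = 0.0162). *Hspa5* missed the threshold in 4, 8 and 4 of 23 alternatives in these comparisons, never with a change of sign, and its GR24 value was -0.15 with the percentile over spots. *Hsp90b1* (Grp94), the ER member of the Hsp90 family, measured 4.80, 4.60 and 4.58 in the control, 4.45, 4.44 and 4.24 with GR24, 5.05, 4.99 and 4.90 with pinosylvin and 4.95, 4.88 and 4.82 with resveratrol. Again every GR24 array was below, and every stilbene array above, the control arrays. It fell by 0.28 with GR24 (SE 0.085, adjusted p = 0.0154) and rose by 0.32 with pinosylvin (adjusted p = 0.0276), calls missed in 5 and 7 of 23 alternatives, and with the percentile over spots the GR24 value was -0.18. With resveratrol the difference was 0.22 (adjusted p = 0.107, and 0.0125 with the replicate number as a block).

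*Hyou1* (Grp170), which exchanges nucleotide on BiP, rose with all 3 compounds. Its signal was 2.45, 2.70 and 2.60 in the control, 3.06, 3.17 and 3.09 with GR24, 3.25, 3.27 and 3.51 with pinosylvin and 3.05, 3.02 and 3.08 with resveratrol. All 9 treated arrays lay above the 3 control arrays, with the pinosylvin arrays highest. *Hyou1* rose by 0.76 with pinosylvin (SE 0.087, adjusted p = 0.000208), 0.52 with GR24 (adjusted p = 0.000452) and 0.47 with resveratrol (adjusted p = 0.00461). *Dnajb9* and *Dnajc3* encode J-domain partners of BiP. *Dnajb9* measured 1.28, 1.27 and 1.31 in the control, 2.34, 2.29 and 2.17 with GR24, 1.69, 1.60 and 1.77 with pinosylvin and 1.62, 1.62 and 1.56 with resveratrol. The GR24 arrays were the highest and the control arrays the lowest, and only the pinosylvin and resveratrol arrays overlapped. *Dnajb9* rose 1.97-fold with GR24 (log2 0.98, SE 0.067, adjusted p = 6.12e-07), by 0.40 with pinosylvin (adjusted p = 0.00243) and by 0.31 with resveratrol (adjusted p = 0.00920). *Dnajc3* measured 1.64, 1.67 and 1.80 in the control, 2.91, 2.95 and 2.75 with GR24, 2.22, 2.24 and 2.13 with pinosylvin and 2.00, 2.08 and 2.02 with resveratrol. Its 4 groups did not overlap, in the order GR24, pinosylvin, resveratrol and control. The rise was 2.25-fold with GR24 (log2 1.17, SE 0.073, adjusted p = 3.18e-07), 0.50 with pinosylvin (adjusted p = 0.00107) and 0.33 with resveratrol (adjusted p = 0.0108). These 9 calls for *Hyou1*, *Dnajb9* and *Dnajc3* were kept in all 23 alternatives.

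*Sdf2l1*, a partner of the BiP co-chaperone *Dnajb11*, went opposite ways with GR24 and pinosylvin. Its signal was 4.18, 4.26 and 4.10 in the control, 3.14, 3.31 and 3.09 with GR24, 4.56, 4.51 and 4.47 with pinosylvin and 4.20, 4.25 and 4.13 with resveratrol. The GR24 arrays were all lowest and the pinosylvin arrays all highest, and the resveratrol arrays overlapped the control. It fell by 1.00 with GR24, a 2.00-fold decrease (SE 0.075, adjusted p = 1.29e-06), and rose by 0.33 with pinosylvin (adjusted p = 0.0131, missed in 2 of 23 alternatives). With resveratrol the difference was 0.012 (adjusted p = 0.952). *Dnajb11* itself rose with pinosylvin, by 0.24 (adjusted p = 0.0330, no overlap, missed in 10 of 23 alternatives), and was 0.16 with GR24 (adjusted p = 0.0576, and 0.0281 with replicate as a block). The lectin chaperones *Calr* and *Canx*, which hold glycoproteins during folding, were not called. *Calr* differed from the control by 0.19, 0.25 and 0.27 with GR24, pinosylvin and resveratrol (adjusted p = 0.102, 0.0972 and 0.0703), and was called higher in all 3 with replicate as a block (adjusted p = 0.0352, 0.0283 and 0.0194). It was called higher in all 3 in the deposited table and with the percentile over spots too, and with GR24 and resveratrol under quantile normalization. *Canx* differed by -0.0098, 0.22 and 0.12, with pinosylvin called under the block (adjusted p = 0.0113). A dimmer probe for *Canx* fell with GR24 by 0.34 (adjusted p = 0.0135, no overlap), so the 2 probes disagree there. That probe was also lower with GR24 than with pinosylvin (-0.41, adjusted p = 0.00530) and than with resveratrol (-0.46, 0.00285), where the brighter one was not called. Between the stilbenes the 2 probes differed in sign (0.098 and -0.054), neither called.

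Of the 8 tested disulfide and folding enzymes, 3 rose and 2 fell with GR24, shares near the 36.1% and 26.7% of named genes. With pinosylvin 1 rose and 0 fell, beside 8.59% and 9.77% of named genes. *Pdia6* fell with pinosylvin too under quantile normalization and in the deposited table. With resveratrol 1 rose and 2 fell, beside 8.63% and 10.3%. *Pdia6*, a disulfide isomerase that works with BiP, measured 6.86, 6.96 and 6.82 in the control, 5.53, 5.59 and 5.36 with GR24, 6.76, 6.62 and 6.69 with pinosylvin and 6.37, 6.43 and 6.40 with resveratrol. All GR24 arrays were lowest, the resveratrol arrays next, and both lay below the pinosylvin and control arrays without overlap. The decrease with GR24 was 2.62-fold (log2 -1.39, SE 0.074, adjusted p = 9.97e-08), and with resveratrol -0.48 (adjusted p = 0.00151), both kept in all 23 alternatives. With pinosylvin the difference was -0.19 (adjusted p = 0.114), with all 3 arrays below the control. *Pdia4*, another isomerase, measured 0.78, 0.80 and 0.86 in the control, 0.62, 0.74 and 0.55 with GR24, 1.24, 1.24 and 1.24 with pinosylvin and 1.27, 1.28 and 1.21 with resveratrol. The 6 stilbene arrays stood above, and the 3 GR24 arrays below, all 3 control arrays. *Pdia4* rose by 0.43 with pinosylvin (SE 0.063, adjusted p = 0.00107) and 0.44 with resveratrol (adjusted p = 0.00100), kept in all 23 alternatives. Its fall with GR24, -0.18 (adjusted p = 0.0345), was missed in 10 of 23, and with the percentile over spots it was -0.076 (adjusted p = 0.259).

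*Pdia5* changed with resveratrol. This isomerase measured -1.85, -1.88 and -1.72 in the control, -1.78, -1.77 and -1.96 with GR24, -1.78, -2.15 and -1.90 with pinosylvin and -2.44, -2.48 and -2.28 with resveratrol. Only the 3 resveratrol arrays were separate, below the 9 others. It fell by 0.58 (SE 0.11, adjusted p = 0.00373), in all 23 alternatives, and a dimmer second probe fell by 0.48 (adjusted p = 0.00784). With GR24 the probes differed in sign, -0.023 and 0.25, and with pinosylvin too, -0.13 and 0.042, none of them called. *Ero1a*, the oxidase that recharges disulfide isomerases, changed with GR24. It measured 0.69, 0.76 and 0.53 in the control, 2.22, 2.28 and 2.09 with GR24, 0.77, 0.81 and 0.71 with pinosylvin and 0.79, 0.61 and 0.57 with resveratrol. The 3 GR24 arrays stood apart from the 9 others, which overlapped. *Ero1a* rose 2.91-fold (log2 1.54, SE 0.086, adjusted p = 1.42e-07), with 1.53 on slide 1 and 1.56 on slide 2, and was 0.10 with pinosylvin (adjusted p = 0.498) and -0.0021 with resveratrol (adjusted p = 0.995). *Uggt1*, the sensor that adds glucose back to misfolded glycoproteins, rose with GR24 by 0.63 (SE 0.13, adjusted p = 0.00180, no overlap), though by 0.25 with normexp. *P4hb*, the classic disulfide isomerase and a subunit of collagen prolyl hydroxylase, rose with GR24 by 0.17 (adjusted p = 0.0317, no overlap), missed in 7 of 23 alternatives, while quantile normalization gave 0.26. *Pdia3*, which serves the lectin chaperones, and *Creld2* were not called, with differences from the control of -0.069 to 0.18. With replicate as a block, *Creld2* was called higher with pinosylvin (adjusted p = 0.0416).

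*Atf6* and *Xbp1*, the transcription factors of the stress response, fell with GR24, and the kinase *Eif2ak3* was not called, although with the percentile over spots it was called higher. *Atf6*, a membrane protein whose cytosolic domain becomes a transcription factor after cleavage, measured 5.02, 5.07 and 4.85 in the control, 3.66, 3.66 and 3.53 with GR24, 5.18, 5.24 and 5.23 with pinosylvin and 4.77, 4.69 and 4.65 with resveratrol. The GR24 arrays were far below the rest, the resveratrol arrays lay below and the pinosylvin arrays above the control, with no overlap. The decrease with GR24 was 2.58-fold (log2 -1.36, SE 0.073, adjusted p = 9.97e-08), in all 23 alternatives. With resveratrol *Atf6* fell by 0.28 (adjusted p = 0.0270, missed in 6 of 23), and by 0.47 as the mean of its probes. With pinosylvin it was 0.24 (adjusted p = 0.0513), not called, but called with quantile normalization, with the percentile over spots and with replicate as a block (0.0169). A second probe for *Atf6* fell by 0.90 with GR24 (adjusted p = 0.000186) and by 0.67 with resveratrol (0.00639), and was 0.12 with pinosylvin (0.620).

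*Xbp1*, whose transcript is spliced by *Ern1* to yield the active factor, measured 2.58, 2.62 and 2.84 in the control, 1.88, 1.83 and 1.93 with GR24, 2.58, 2.53 and 2.92 with pinosylvin and 2.51, 2.45 and 2.78 with resveratrol. The 3 GR24 arrays were below the other 9, which overlapped. It fell by 0.80 with GR24 (a 1.74-fold decrease, SE 0.12, adjusted p = 0.000237), in all 23 alternatives, and differed by -0.0031 with pinosylvin (95% interval -0.27 to 0.27, adjusted p = 0.993) and -0.099 with resveratrol (-0.37 to 0.17, adjusted p = 0.678). Splicing of *Xbp1* was not analysed here. *Eif2ak3*, the kinase that phosphorylates a translation initiation factor, measured -1.14, -1.01 and -1.30 in the control, -0.97, -0.76 and -1.19 with GR24, -1.34, -1.21 and -1.09 with pinosylvin and -1.12, -1.30 and -1.22 with resveratrol. The 4 groups overlapped. The differences from the control were 0.18 with GR24 (95% interval -0.088 to 0.44, adjusted p = 0.238), -0.059 with pinosylvin (adjusted p = 0.814) and -0.061 with resveratrol (adjusted p = 0.821). With the percentile over spots, *Eif2ak3* was 0.28 higher with GR24 (adjusted p = 0.0456). *Ern1*, the sensor that splices *Xbp1*, measured -5.43, -5.44 and -4.88 in the control, -4.58, -4.89 and -4.59 with GR24, -4.78, -4.93 and -5.10 with pinosylvin and -5.58, -5.15 and -5.47 with resveratrol. It was well above background on 1, 2, 1 and 0 arrays of the respective groups, so it was not tested and no fold is given.

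Among the 9 tested degradation genes, 4 rose and 1 fell with GR24, beside 36.1% and 26.7% of named genes. *Edem1* and *Edem2* rose with GR24 too when the percentile was taken over spots. With pinosylvin 2 rose (*Derl3* and *Edem2*) and 0 fell, beside 8.59% and 9.77% of named genes. With resveratrol 1 rose (*Derl3*) and 0 fell, beside 8.63% and 10.3%. Each count of rises is 1 lower without *Derl3*, which was tested because the treated groups were bright. *Sel1l*, the partner that stabilises the ligase *Syvn1*, lay at 0.17 to 0.28 on the 3 GR24 arrays and at -1.06 to -0.46 on the other 9. It rose 2.16-fold with GR24 (log2 1.11, SE 0.11, adjusted p = 1.00e-05). *Syvn1* itself rose with GR24 by 0.29 (SE 0.074, adjusted p = 0.00650, no overlap), and its dimmer probe was 0.31 (adjusted p = 0.0781). With resveratrol its probes were -0.020 and 0.043, neither called. *Herpud1*, a membrane scaffold of the *Syvn1* complex, rose with GR24 by 0.26 (adjusted p = 0.0425), but its arrays overlapped, with 0.41 on slide 1 and -0.053 on slide 2, and the call was missed in 12 of 23 alternatives. *Os9*, a lectin that delivers misfolded glycoproteins to the complex, fell with GR24 by 0.66 (SE 0.12, adjusted p = 0.000639, no overlap). A dimmer probe for *Os9* fell by 0.39 with GR24 (adjusted p = 0.000233) and rose with pinosylvin by 0.25 (0.0154), where the brighter probe was 0.14 (adjusted p = 0.496). It was also 0.31 higher with pinosylvin than with resveratrol (adjusted p = 0.00630, no overlap), where the brighter probe was 0.19 (0.318).

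*Edem1* and *Edem2* take part in the mannose trimming that marks glycoproteins for degradation. *Edem2* measured -1.08, -1.18 and -1.14 in the control, -1.06, -0.90 and -0.86 with GR24, -0.75, -0.93 and -0.74 with pinosylvin and -1.09, -1.05 and -1.26 with resveratrol. The 3 pinosylvin arrays lay above all control and resveratrol arrays, and the GR24 arrays overlapped both stilbene groups. *Edem2* rose with pinosylvin by 0.33 (SE 0.084, adjusted p = 0.0250, missed in 7 of 23 alternatives), and was 0.19 with GR24 (adjusted p = 0.0790) and -0.0034 with resveratrol (adjusted p = 0.990). For *Edem1* the brightest probe was not called, at 0.14 with GR24, -0.071 with pinosylvin and 0.22 with resveratrol (adjusted p = 0.227, 0.684 and 0.140). With replicate as a block, resveratrol was called (adjusted p = 0.0254). Its dimmer probes rose with GR24 by 0.84 and 0.53 (adjusted p = 8.28e-06 and 0.00253, neither overlapping), and the first of them with resveratrol by 0.31 (0.0238). With pinosylvin they were 0.099 and 0.10, not called. Both were higher with GR24 than with pinosylvin (0.74 and 0.42, adjusted p = 2.28e-05 and 0.00931) and than with resveratrol (0.52 and 0.38, 0.000308 and 0.0185), where the brightest was 0.21 and -0.080, not called. Against pinosylvin the brightest was called higher with quantile normalization (0.26), in the deposited table (0.30) and with the percentile over spots (0.30). *Derl1*, a second Derlin, was 0.11, 0.27 and 0.025 with GR24, pinosylvin and resveratrol, without a call. *Selenos*, a selenoprotein that recruits the extracting ATPase *Vcp*, was -0.19, 0.28 and 0.14 (adjusted p = 0.0852, 0.0563 and 0.337). It was called lower with GR24 and higher with pinosylvin under the block (adjusted p = 0.0173 and 0.00912).

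The translocation members carry new proteins into the ER. With GR24, 2 of 3 fell, *Sec61b* and *Ssr1*, beside 26.7% of named genes, but 0 of 3 with the percentile over spots, beside 23.4%. With each stilbene 0 were called. The shares of named genes were 8.59% higher and 9.77% lower with pinosylvin, and 8.63% and 10.3% with resveratrol. *Sec61b*, a channel subunit, fell by 0.34 (SE 0.13, adjusted p = 0.0452, no overlap), missed in 13 of 23 alternatives. *Ssr1*, a subunit of the translocon-associated complex, fell by 0.23 (adjusted p = 0.0217, no overlap), missed in 7 of 23. Its dimmer probe pointed the other way, at 0.18 (adjusted p = 0.0985), and the mean of both probes was -0.023 (adjusted p = 0.816). The dimmer probe was higher with GR24 than with pinosylvin (0.45, adjusted p = 0.00113) and than with resveratrol (0.41, 0.00230), with no overlap, where the brighter one was -0.15 (0.111) and -0.19 (0.0553). *Sec61a1*, the channel itself, was -0.088, 0.085 and 0.090 with GR24, pinosylvin and resveratrol (adjusted p = 0.305, 0.468 and 0.451).

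Pinosylvin and resveratrol are the same stilbene scaffold, and resveratrol carries an additional hydroxyl group on the ring that pinosylvin leaves bare. Both were given at 60 µM for 24 h, so their readouts can be set against each other. In the main fit, 7 of 32 tested members differed, all higher with pinosylvin. *Edem1* was called lower under each of the other scalings and with replicate as a block. The count moved with single arrays left out, as given below. By the brightest probes and the main background correction, *Derl3* had the largest difference, as given, though it was 0.45 with normexp. *Atf6* was 1.43-fold higher (log2 0.51, 95% interval 0.35 to 0.67, adjusted p = 0.00123), with no overlap and kept in all 23 alternatives, and its second probe was 0.79 higher (adjusted p = 0.00316). *Pdia5* was higher by 0.46 (0.22 to 0.69, adjusted p = 0.0165), *Edem2* by 0.33 (0.14 to 0.52, 0.0270), and *Sdf2l1* by 0.32 (0.15 to 0.49, 0.0184). *Hyou1* was higher by 0.30 (0.10 to 0.49, 0.0475) and *Pdia6* by 0.29 (0.13 to 0.46, 0.0263). The pinosylvin and resveratrol arrays did not overlap for any of these 7. Among all named genes, 17.4% were higher and 18.5% lower with pinosylvin without overlap. The 7 were called on these same arrays, so their separation adds no support. The calls were missed in 7 of 23 alternatives for *Pdia5*, 7 for *Edem2*, 5 for *Sdf2l1*, 16 for *Hyou1* and 9 for *Pdia6*. The call of *Derl3*, missed in the deposited table, rests on the pinosylvin values for which the gene was singled out. It is no support, and the count of 7 is 1 lower without it. In the same comparison 15 of 20 myotube markers were higher and 0 lower (median 0.46, with 11 higher in the deposited table), and 5 of 8 myoblast markers lower and 0 higher, and their part in these differences was not tested.

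By the brightest probes, no difference between the stilbenes was called for 25 members, *Os9* among them despite its dimmer probe, with differences from -0.29 to 0.31 and 95% intervals reaching from -0.49 to 0.60. A p over the threshold does not show that the compounds act alike. *Hspa5* differed by -0.040 (95% interval -0.21 to 0.13, adjusted p = 0.800) and *Pdia4* by -0.0072 (-0.15 to 0.13, 0.965), with overlapping arrays in both. *Dnajb9* differed by 0.087 (-0.061 to 0.23), *Hsp90b1* by 0.098 (-0.092 to 0.29) and *Xbp1* by 0.096 (-0.17 to 0.37). Several uncalled members lay close to the threshold. *P4hb* was 0.20 (adjusted p just over 0.05) and *Dnajb11* 0.21 (0.0611), while *Edem1* was -0.29 (0.0617), lower with pinosylvin on all 3 arrays. With replicate as a block these 3 and *Creld2* were called (adjusted p = 0.0180, 0.0255, 0.00885 and 0.0449).

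Set directly against the stilbenes, GR24 differed most from pinosylvin in *Atf6*, *Ero1a*, *Sdf2l1* and *Pdia6*, and from resveratrol in *Ero1a*, *Sel1l*, *Atf6* and *Sdf2l1*. *Atf6* was -1.60 against pinosylvin (SE 0.073, adjusted p = 3.98e-08) and -1.09 against resveratrol (adjusted p = 8.41e-07), although its second probe did not differ past the threshold from resveratrol (-0.23, adjusted p = 0.178). *Ero1a* was 1.44 and 1.54 higher (adjusted p = 2.94e-07 and 2.40e-07). *Sdf2l1* was -1.33 and -1.01 (adjusted p = 1.85e-07 and 1.70e-06). *Hspa5*, the main lumenal chaperone, was -0.52 and -0.56 (adjusted p = 0.000156 and 0.000109), and *Hsp90b1* -0.61 and -0.51 (adjusted p = 0.000143 and 0.000566). In each of these 5 genes the GR24 arrays lay on 1 side of all stilbene arrays. Members not called against the control may still differ here: *Selenos* fell by 0.47 against pinosylvin (adjusted p = 0.000971), and *Creld2* by 0.25 (adjusted p = 0.0333). The *Creld2* call was lost in the deposited table (-0.16, adjusted p = 0.0519) and with the percentile over spots (-0.16, 0.0635).

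Side by side against the shared control arrays, *Dnajb9*, *Dnajc3* and *Hyou1* were called higher with all 3 compounds. *Derl3* passed the threshold too, but its probe was tested because the treated groups were bright, a choice that favours a difference. Against the control, 10 members were called with GR24 and with neither stilbene: *P4hb*, *Herpud1*, *Syvn1*, *Sel1l*, *Uggt1* and *Ero1a* rose, and *Xbp1*, *Os9*, *Sec61b* and *Ssr1* fell. The share of all named genes with each such pattern is not given here. With GR24, 36.1% of named genes were higher and 26.7% lower, against 8.59% and 9.77% with pinosylvin and 8.63% and 10.3% with resveratrol. By the brightest probes, GR24 was not called different from pinosylvin for *P4hb*, from resveratrol for *Sec61b*, or from either stilbene for *Herpud1* and *Ssr1*. That depends on scaling and probe. *P4hb* was called higher than with pinosylvin with quantile normalization, in the deposited table and with the percentile over spots, and *Herpud1* higher than with both stilbenes in the last (adjusted p = 0.0210 and 0.0396). *Ssr1* was lower than with resveratrol with quantile normalization (0.0408), whereas its dimmer probe was higher than with both stilbenes. *Syvn1* and *Uggt1* were not called against pinosylvin with normexp, and the dimmer *Syvn1* probe against neither stilbene (0.257 and 0.132). *Hspa5* and *Pdia4* were lower with GR24 and higher with both stilbenes, *Hsp90b1* and *Sdf2l1* lower with GR24 and higher with pinosylvin. *Pdia6* and *Atf6* were lower with GR24 and resveratrol, *Dnajb11* and *Edem2* higher with pinosylvin, and *Pdia5* lower with resveratrol. The remaining 9 were called with none of the 3: *Calr*, *Canx*, *Pdia3*, *Eif2ak3*, *Derl1*, *Edem1*, *Creld2*, *Sec61a1* and *Selenos*. A call with 1 compound and not with another is no test of their difference, which the direct comparisons give.

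Replicates 1 and 2 of every group were on slide 1 (8 arrays) and replicates 3 on slide 2 (4 arrays). Of the members called, the change had the same sign on both slides for 19 of 20 with GR24 (*Herpud1* differed), 10 of 10 with pinosylvin, 9 of 9 with resveratrol and 7 of 7 between the stilbenes. The calls used the arrays of both slides, so this agreement is largely built in and is no independent support. The share over all called genes is not given here. With the replicate number as a block, 12 members were higher and 11 lower with GR24, 15 and 0 with pinosylvin, and 9 and 3 with resveratrol. The named genes then called were 41.1% and 30.7%, 17.1% and 14.3%, and 15.8% and 15.4%. Between the stilbenes, 10 members were higher and 1, *Edem1*, lower, beside 14.3% and 14.1%. For GR24 against pinosylvin the block gave 7 higher and 17 lower, beside 39.7% and 31.5%, with *Canx*, *Pdia3*, *Edem1*, *Sec61a1* and *Ssr1* gained. For GR24 against resveratrol it gave 8 and 12, beside 37.2% and 29.5%, with *Canx*, *Sec61a1* and *Ssr1* gained. No member lost its call under this block in these comparisons.

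Other genes of the same compartment were read from lists of textbook roles, counted as higher and lower among the genes tested, beside the shares of named genes given above. The largest changes past the threshold without overlap of arrays are named, each with its log2 change and adjusted p. Of 25 further ERAD genes, 17 rose and 2 fell with GR24, 2 rose with pinosylvin and 1 with resveratrol, while 1 was lower with pinosylvin under quantile normalization and normexp. The GR24 split was 20 and 1 in the deposited table and with the percentile over spots. With GR24 the ubiquitin-conjugating enzyme *Ube2j1* and the *Vcp* cofactors led the rises: *Ube2j1* (0.92, 2.38e-05), *Nploc4* (0.91, 2.91e-06) and *Ufd1* (0.83, 0.000242). The falls were *Erlec1* (-0.36, 0.0290) and *Ubl4a* (-0.30, 0.0187). With pinosylvin the ligase *Rnf185* and the ATPase rose, *Rnf185* (0.37, 0.00964) and *Vcp* (0.31, 0.0498), and with resveratrol *Nploc4* (0.28, 0.0286).

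Of 33 further folding genes, 7 rose and 17 fell with GR24, 5 of the 32 with signal in either group rose and 0 fell with pinosylvin, where quantile normalization gave 1 lower, and 1 rose and 1 fell with resveratrol, where the other 4 scalings gave more higher than lower. With GR24, *Ero1b*, the paralog of *Ero1a*, was at least 3.27-fold higher. It was dim on the control arrays and entered the test through GR24, the group where it is high. That choice favours a difference, so no p is given, and the count of 7 rises is 1 lower without *Ero1b*. The next rises were *Plod1* (0.76, 8.45e-06) and *Erp44* (0.60, 5.42e-05). The falls were led by the prolyl isomerase *Ppic*: *Ppic* (-1.30, 9.31e-07), *Nucb2* (-0.80, 5.30e-06) and *Fkbp9* (-0.63, 7.21e-05). With pinosylvin the isomerases *Fkbp7* (0.64, 0.000478) and *Fkbp11* (0.46, 0.00516) rose. *Ero1b* was above background on no pinosylvin or control array and is not counted there. With resveratrol *Fkbp7* (0.80, 0.000133) rose and *Nucb2* (-0.24, 0.0496) fell. Of 26 further genes of stress signalling, 11 rose and 6 fell with GR24, 6 and 2 with pinosylvin, and 5 and 2 with resveratrol. The GR24 split was 14 and 6 with quantile normalization, 14 and 5 in the deposited table and 16 and 5 with the percentile over spots. With GR24, the transcription factors *Crebrf* and *Atf3* and the pseudokinase *Trib3* rose, *Crebrf* (1.17, 3.03e-06), *Trib3* (0.93, 0.000123) and *Atf3* (0.73, 6.19e-06), and *Nupr1* (-1.02, 1.50e-05), *Stc2* (-1.01, 3.30e-05) and *Bok* (-0.94, 1.05e-05) fell. With pinosylvin, the phosphatase subunit *Ppp1r15a* led the rises, *Ppp1r15a* (0.69, 0.00167), *Vldlr* (0.59, 0.00854) and *Crebrf* (0.43, 0.0142), and *Bok* (-0.99, 5.30e-05) and *Stc2* (-0.54, 0.0103) fell. With resveratrol, *Trib3* (0.88, 0.00114), *Vldlr* (0.54, 0.0134) and *Ddit3* (0.41, 0.00323) rose and *Bok* (-0.60, 0.00167) and *Stc2* (-0.42, 0.0340) fell.

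Of 27 further translocation genes, 9 rose and 6 fell with GR24, 4 rose with pinosylvin and 2 with resveratrol, with the percentile over spots giving 13 and 5, 7 and 0, and 3 and 1, and the deposited table giving 12 and 6 with GR24. *Srprb*, a subunit of the signal recognition particle receptor, rose with all 3 compounds. The GR24 rises were *Srprb* (0.87, 1.64e-06), *Sec11c* (0.72, 6.10e-06) and *Get1* (0.68, 7.10e-06) and the falls *Spcs2* (-0.63, 0.00110), *Sec61g* (-0.43, 0.000508) and *Sec63* (-0.42, 0.000199). The pinosylvin rises were *Srprb* (0.52, 0.000469), *Emc3* (0.36, 0.0108) and *Sec11c* (0.32, 0.00868), and those with resveratrol *Sec63* (0.26, 0.0194) and *Srprb* (0.23, 0.0427). Of 24 genes of N-glycosylation, 9 rose and 4 fell with GR24 (12 and 3 with the percentile over spots), 4 and 1 with pinosylvin, and 0 and 1 with resveratrol. With GR24, *Alg12* (1.05, 0.000145), *Alg2* (0.86, 8.30e-05) and *Mogs* (0.57, 0.000244) rose, *Alg12* and *Alg2* being mannosyltransferases and *Mogs* a glucosidase, and *Stt3a* (-1.05, 1.04e-06), *Ostc* (-0.55, 4.33e-05) and *Tusc3* (-0.37, 0.0180) fell. With pinosylvin *Ddost* (0.32, 0.0228), *Krtcap2* (0.28, 0.0362) and *Ostc* (0.27, 0.0193) rose and *Alg8* (-0.65, 0.000122) fell, and with resveratrol *Stt3b* (-0.40, 0.0460) fell. Of 30 genes of ER export, 10 rose and 4 fell with GR24, with a median of -0.0021 that turned positive with quantile normalization, in the deposited table and with the percentile over spots (13 and 3). The export split with pinosylvin was 2 and 1, but 5 and 1 in the deposited table and 4 and 1 with the percentile over spots. With resveratrol it was 1 and 2, and the median of -0.014 turned positive in the deposited table. With GR24, *Sec24a* (0.95, 7.72e-05), *Preb* (0.72, 8.62e-05) and *Arfgap3* (0.65, 1.62e-05) rose, and *Kdelr3* (-1.07, 1.31e-07), *Kdelr2* (-0.67, 2.84e-05) and *Tmed3* (-0.36, 0.00489) fell, *Kdelr2* and *Kdelr3* being receptors that return escaped ER proteins. With pinosylvin *Sec16a* (0.35, 0.0106) and *Arfgap3* (0.27, 0.0220) rose and *Kdelr3* (-0.30, 0.00681) fell. With resveratrol *Sec24a* (-0.44, 0.0351) and *Kdelr3* (-0.24, 0.0185) fell and *Sec16a* (0.26, 0.0388) rose, but under the other 4 scalings 0 genes of this list rose.

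Markers of cell state moved with the groups too. Of 20 myotube markers, 16 fell and 0 rose with GR24 (median -1.48), 10 fell with resveratrol (median -0.28), and 5 rose with pinosylvin (median 0.17), where quantile normalization and the deposited table gave 4 higher and 1 lower. Their summed signal, in units of the 75th percentile of the array, was 2047, 2316 and 2009 on the control arrays, 1001, 1009.9 and 955 with GR24, 2244, 2379 and 2235 with pinosylvin and 1788, 1906 and 1757 with resveratrol, the probe of *Mylpf* making the largest part of the sum. With GR24, *Myog* (-5.83, 5.53e-10), *Acta1* (-3.88, 2.39e-10) and *Actc1* (-2.90, 9.55e-10) fell, and *Myod1*, dim on every GR24 array, was at least 3.21-fold lower. With pinosylvin *Myog* (0.73, 0.00654), *Myh7* (0.68, 0.0108) and *Tnnt3* (0.54, 0.000919) rose, and with resveratrol *Ckm* (-1.04, 0.000597) and *Actc1* (-0.80, 9.74e-05) fell. *Myod1* was called lower with resveratrol too, but with 2 of its 3 arrays above background no value is given. Of 8 markers of undifferentiated or cycling myoblasts, 1 rose and 5 fell with GR24, 6 fell with pinosylvin and 4 with resveratrol. With *Id3*, which was not tested, their sums were 233, 233 and 212, then 103, 105 and 93.8, 146, 150.2 and 136 and 143, 151 and 136 in the same order of groups, the probe of *Vim* making the largest part. The cycling genes fell most with each compound: with GR24 *Ccnb1* (-2.86, 6.46e-08), *Mki67* (-2.83, 7.59e-09) and *Cdk1* (-2.81, 3.55e-10), while *Id2* (1.22, 9.93e-07) rose, with pinosylvin *Ccnb1* (-1.74, 2.11e-05), *Mki67* (-1.65, 3.23e-06) and *Cdk1* (-1.39, 7.47e-07), and with resveratrol *Ccnb1* (-1.02, 0.000911), *Mki67* (-0.81, 0.000497) and *Cdk1* (-0.81, 3.01e-05). *Id3* was well above background on 1 array of each group.

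Of 8 fibroblast markers, 1 rose and 7 fell with GR24, 2 rose and 2 fell with pinosylvin, and 1 rose and 1 fell with resveratrol, with 0 higher with GR24 under normexp. *Pdgfra* rose with each compound (0.23, 0.43 and 0.35), and *Lum* with pinosylvin (0.53). With GR24 *Col3a1* (-1.59, 1.29e-07), *Thy1* (-0.90, 3.55e-06) and *Lum* (-0.85, 3.34e-05) fell, with pinosylvin *Thy1* (-0.63, 0.000338) and *Col1a1* (-0.34, 0.0114), and with resveratrol *Col1a1* (-0.43, 0.00304). They summed to 657, 693 and 649 in the control, 418, 420.5 and 386 with GR24, 601, 645 and 661 with pinosylvin and 583, 593 and 603 with resveratrol, the probe of *Col1a2* making the largest part. No array was above background for the adipocyte markers *Adipoq* and *Lep* or the leukocyte markers *Ptprc* and *Cd3e*. Of their lists, *Cfd* was tested and rose with pinosylvin (0.41, adjusted p = 0.0222), and *Cd68*, a lysosomal protein, rose with GR24 (2.67, adjusted p = 4.11e-07), while the endothelial *Cdh5*, also tested, was -0.44 with GR24 (adjusted p = 0.151) and not called with any compound. The part of these markers, of the slide and of the batch of cells in the changes of the ER genes was not tested.

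Many ER stress genes carry short response elements near their start, so the members' promoters were searched for 3 motifs, each on both strands. Promoters of RefSeq genes (250 bases before to 50 after the start, rat assembly GRCr8) were at hand for 26 of the 36 members, *Hyou1* with 2. *Pdia3*, *Pdia6*, *Ern1*, *Atf6*, *Derl1*, *Os9*, *Manf*, *Sec61a1*, *Ero1a* and *Sec24d* were not in the table. The ER stress response element, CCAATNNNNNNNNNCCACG, was in 22 of 33469 promoters (0.0657%), among them those of 8 members: *Hspa5*, *Hsp90b1*, *Calr*, *Canx*, *Dnajc3*, *Xbp1*, *Derl3* and *Creld2*. Its second form, ATTGGNCCACG, was in 17 promoters (0.0508%), among them those of *Dnajb11*, *Hyou1* and *Herpud1*. The core of the unfolded protein response element, TGACGTGG, was in 199 (0.595%), with *Hyou1* the only member, where it overlaps a match of the second form. The remaining 15 members with a promoter held none of the 3. A match is a description of these letters in this window and not a measured site. Whether calls go with a match was not tested.

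The promoters of *Derl3*, *Dnajc3* and *Hyou1*, which rose with all 3 compounds, and of *Hspa5*, which fell with GR24 and rose with the stilbenes, are shown 5′ to 3′ on the gene's strand, with the matches in capitals. They lie at chr20:12766416-12766715 (minus strand), chr15:102432417-102432716 (plus), chr8:53602632-53602931 (plus, the first of its 2 promoters) and chr3:38452766-38453065 (plus) of GRCr8, from RefSeq. The match ran from 154 to 136 bases before the start in *Derl3*, on the opposite strand, from 133 to 115 in *Dnajc3* and from 43 to 25 in *Hspa5*. In *Hyou1* the capitals from 191 to 178 join the core element and an overlapping match of the second form, and another match lies from 88 to 78. All of the promoters shown hold a match. *Dnajb9*, which also rose with all 3 compounds, and *Pdia4*, with the same calls as *Hspa5*, had promoters without a match, not shown.
Derl3: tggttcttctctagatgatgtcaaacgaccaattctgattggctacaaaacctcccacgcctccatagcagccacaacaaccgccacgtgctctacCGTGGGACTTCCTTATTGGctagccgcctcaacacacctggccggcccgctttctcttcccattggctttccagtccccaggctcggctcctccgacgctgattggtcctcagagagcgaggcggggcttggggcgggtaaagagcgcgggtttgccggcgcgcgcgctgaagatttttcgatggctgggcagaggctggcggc
Dnajc3: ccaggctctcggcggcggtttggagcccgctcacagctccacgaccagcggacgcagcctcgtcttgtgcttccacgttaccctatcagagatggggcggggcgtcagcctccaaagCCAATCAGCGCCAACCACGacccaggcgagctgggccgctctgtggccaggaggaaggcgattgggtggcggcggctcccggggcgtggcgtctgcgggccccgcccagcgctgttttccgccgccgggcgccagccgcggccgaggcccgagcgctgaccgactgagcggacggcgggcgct
Hyou1: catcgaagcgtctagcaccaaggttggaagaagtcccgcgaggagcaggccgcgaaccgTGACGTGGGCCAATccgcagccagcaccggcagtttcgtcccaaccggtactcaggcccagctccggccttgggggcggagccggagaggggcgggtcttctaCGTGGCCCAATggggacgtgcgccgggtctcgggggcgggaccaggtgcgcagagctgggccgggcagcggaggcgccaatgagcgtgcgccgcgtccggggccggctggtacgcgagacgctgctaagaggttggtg
Hspa5: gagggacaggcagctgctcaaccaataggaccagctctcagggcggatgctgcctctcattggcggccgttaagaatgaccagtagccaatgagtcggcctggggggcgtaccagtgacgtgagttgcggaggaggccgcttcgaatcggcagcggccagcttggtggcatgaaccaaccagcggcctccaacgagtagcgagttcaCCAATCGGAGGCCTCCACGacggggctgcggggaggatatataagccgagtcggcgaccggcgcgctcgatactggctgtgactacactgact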

How the data were processed

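RNA of 12 samples of L6 myotubes, 3 per group, was labelled with Cy3 and read on Agilent arrays of 1 colour. The authors' scanner software, Agilent Feature Extraction 12.0.0.7, made the deposited processed signal, an intensity with background subtracted within the array and no normalization between arrays, and the deposited median signals of spot and local background, also intensity. The authors' deposited series table holds log2 values of 25848 probes. Its normalization and centring are not stated. Each column correlated with log2 of the median signal of its array at 0.999 or more, and the column medians were 9.22, 9.21 and 9.22 for the control, 9.24, 9.24 and 9.24 for GR24, 9.21, 9.21 and 9.21 for pinosylvin, and 9.22, 9.22 and 9.22 for resveratrol. It was used as an alternative.

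Spots marked as outliers were set to missing, control spots dropped, and repeated spots of a probe averaged. The log2 processed signal was scaled by subtracting the 75th percentile over the 45598 probes, array by array. A GRCr8 gene table, used for names only, matched the RefSeq accession (version ignored) of 21109 probes (46.3%). The brightest probe by mean over all arrays stands for a gene, and other probes are given where they differ in call or sign. Of the 24278 probes tested, 87.3% were well above background on all 12 arrays. limma 3.58.1 in R 4.3.3 fitted group means to the 12 arrays together, with moderated variances (eBayes), and p was adjusted by Benjamini-Hochberg across every probe tested. The procedure was tested on simulated data. Correlations between arrays of a group were 0.990 to 0.997. In 18 pairs of arrays of the same replicate number in different groups, the deviations from the group means correlated at 0.191 to 0.744. Arrays of the same number also shared a slide, so these correlations cannot tell pairing by number from a slide difference. A fit with the replicate number as a block was run.

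Per-array values are given for *Derl3*, *Hspa5*, *Hsp90b1*, *Xbp1*, *Ern1*, *Atf6*, *Eif2ak3* and the 5 members with the largest called change without overlap in each comparison with the control and between the stilbenes. Members and lists were chosen with earlier results of these data known. Alternatives were quantile normalization, normexp (offset 50, on the median signals), the deposited table, dim probes kept, probes required above background on every array, only the arrays compared, replicate or slide as a block, slide 1 alone, the mean over the probes of a gene, each array left out and, chosen after seeing the data, the percentile over spots. The ends of the protein sequences were not analysed here.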

Additional observations from a re-analysis of the deposited data

How the results depend on the processing

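With 3 arrays a group from a single batch of cells, the SE of a member is about the same in each comparison. Members with an adjusted p near the threshold can gain or lose a call. Dim probes are limited by the background, which sets the bounds of *Derl3* and leaves *Ern1* untested. Of 46 member results against the control or between the stilbenes, 26 kept their call in every alternative. Of their 1054 values, 907 were the same, 147 missed the threshold and 0 reversed. The ER members called for pinosylvin minus control were 10, and 5 with no filter on dim probes, 6 with only the arrays compared, 16 with the slide block and 5 to 12 with 1 array left out (5 without pinosylvin replicate 1, 6 without control replicate 3). The ER members called for pinosylvin minus resveratrol were 7, and 2 with no filter, 3 with only the arrays compared, 3 with slide 1 only, 12 with the slide block, 11 with the replicate block and 2 to 8 with 1 array left out (2 without pinosylvin replicate 1, 3 without pinosylvin replicate 3, resveratrol replicate 1 or resveratrol replicate 3, 4 without resveratrol replicate 2). With 1 array left out, 15 to 19 members were called with GR24 (8 to 11 higher, 5 to 10 lower) and 7 to 9 with resveratrol, and 14 with GR24 with no filter or only the arrays compared. All probes called for pinosylvin minus control were 4019, and 2409 with no filter, 2479 with only the arrays compared, 6946 with the replicate block and 7074 with the slide block. All probes called for resveratrol minus control were 4123, and 2680 with no filter, 6768 with the replicate block and 6869 with the slide block. All probes called for pinosylvin minus resveratrol were 3528, and 1975 with no filter, 6323 with the replicate block, 6444 with the slide block and 2148 to 3683 with 1 array left out (2148 without pinosylvin replicate 2, 2237 without resveratrol replicate 2, 2312 without resveratrol replicate 3). The percentile over spots was added after seeing the data. The cause of these differences was not tested.

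Leaving out 1 array ended these calls, given as the range of the adjusted p past the threshold and the arrays (group and replicate number) that did so. For GR24 minus control: *Hspa5* 0.0530 (GR24 3), *Hsp90b1* 0.0564 to 0.0648 (control 1, GR24 3), *Pdia4* 0.0548 to 0.113 (control 1/2/3, GR24 1/3), *P4hb* 0.0630 to 0.112 (control 1/3, GR24 1/2), *Herpud1* 0.0523 to 0.164 (control 1/2, GR24 1/2, pinosylvin 1/3, resveratrol 1/2/3), *Sec61b* 0.0523 to 0.152 (GR24 1/2/3, resveratrol 1/3, control 2/3, pinosylvin 2), *Ssr1* 0.0699 to 0.0763 (control 1/2, GR24 3). For pinosylvin minus control: *Hspa5* 0.0515 to 0.109 (control 1/2/3, pinosylvin 1/2/3), *Hsp90b1* 0.0790 to 0.0979 (pinosylvin 1/2, control 2/3), *Dnajb11* 0.0511 to 0.115 (control 1/2/3, GR24 1, pinosylvin 1/2/3), *Sdf2l1* 0.0523 (pinosylvin 1), *Edem2* 0.0625 to 0.0867 (pinosylvin 1/3, control 2/3). For resveratrol minus control: *Hspa5* 0.0541 to 0.0658 (control 1, resveratrol 1), *Atf6* 0.0796 to 0.0959 (control 1/2, resveratrol 2/3). For pinosylvin minus resveratrol: *Pdia5* 0.0514 to 0.0661 (pinosylvin 1/3, resveratrol 1/2), *Pdia6* 0.0623 to 0.0902 (pinosylvin 1/3, resveratrol 1/2/3), *Sdf2l1* 0.0597 to 0.0706 (pinosylvin 1/2, resveratrol 3), *Hyou1* 0.0581 to 0.137 (GR24 1/2/3, pinosylvin 1/2/3, resveratrol 1/2/3, control 3), *Edem2* 0.0544 to 0.0988 (pinosylvin 1/3, resveratrol 1/3).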
